A study of Mus musculus with 6 samples.

Results

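The 9 genes Gas5, Zfas1, Snhg1, Snhg3, Snhg5, Snhg6, Snhg8, Snhg12 and Snhg15 are noncoding hosts of small nucleolar RNAs (snoRNAs), and their rows were taken by symbol from a deposited table of 19233 genes. All 9 were in the table. Levels are in FPKM, which corrects the fragments of a gene for its length and for the depth of the library. The libraries were made from RNA of polysome fractions, in which mRNAs carry several ribosomes, of RAW264.7 cells, a male mouse macrophage-like line. All 6 libraries are titled M2, the alternatively activated state. BMH-21, a small molecule that blocks RNA polymerase I, was given at 500 nM to the cells of 3 libraries, and the cells of the other 3 had DMSO. BMH-21 was present for 24 h, starting 24 h after polarization. The treatment text also names bone-marrow-derived macrophages, either with 20 ng/ml of IL-4 or with LPS and interferon gamma at 50 ng/ml each, so the agent used on the line is not settled. DMSO replicate 2 is labelled as polyadenylated RNA and the other 5 as total RNA, although the same oligo-dT kit is described for every library. No unfractionated RNA was used here, so the level of a transcript and its share on polysomes cannot be told apart. In bulk samples, fewer cells of a type and less RNA per cell cannot be told apart either.

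A host gene is transcribed by RNA polymerase II, and its snoRNAs are cut out of the introns after splicing. Box C/D snoRNAs guide methylation of ribosomal RNA and H/ACA snoRNAs guide its pseudouridylation, so host transcription feeds ribosome assembly. The spliced exons of noncoding hosts hold only short reading frames. Such RNAs can still engage ribosomes, and several, Gas5 among them, are known targets of nonsense-mediated decay. Many hosts also start with a terminal oligopyrimidine (TOP) tract, a C followed by further pyrimidines, which couples translation to growth signals in ribosomal protein mRNAs. What was measured here is the polyadenylated host RNA, spliced or with introns kept, and not the snoRNAs.

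Loci were taken from GENCODE M21 on GRCm38, the assembly also called mm10. A snoRNA gene on the strand of the host was counted only if it lay inside an intron of at least 1 annotated host transcript. By this rule the 9 hosts held 31 snoRNA loci. The intronic RNAs differ between the hosts, and a few are shown because they set the order of the results. A script marked a box C core (TGATGA, in the first 25 bases) together with a box D (CTGA, in the last 20 bases), or otherwise an ACA in the last 8 bases. The search used the RNA strand, and capitals mark the letters found. The box C and D letters were found in 20 of the 31 loci, ACA in 6 and neither in 5. Over all 1558 annotated snoRNA genes the shares were 20.2%, 46.7% and 33.1%. Positions on GRCm38 were Snord47 chr1:161038082-161038158 (plus), Snord12 chr2:167065276-167065365 (plus), Snord50a chr9:88521529-88521600 (minus), Snora73a chr4:132352775-132352979 (minus), Snora24 chr3:123507937-123508066 (minus), Snora9 chr11:6528033-6528165 (minus), Snord99 chr4:132310691-132310764 (plus).
Snord47, in Gas5: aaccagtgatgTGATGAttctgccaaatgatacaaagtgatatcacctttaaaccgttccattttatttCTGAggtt
Snord12, in Zfas1: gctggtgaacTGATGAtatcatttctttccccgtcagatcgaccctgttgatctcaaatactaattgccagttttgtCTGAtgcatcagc
Snord50a, in Snhg5: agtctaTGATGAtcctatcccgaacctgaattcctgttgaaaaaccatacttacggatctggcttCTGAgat
Snora73a, in Snhg3: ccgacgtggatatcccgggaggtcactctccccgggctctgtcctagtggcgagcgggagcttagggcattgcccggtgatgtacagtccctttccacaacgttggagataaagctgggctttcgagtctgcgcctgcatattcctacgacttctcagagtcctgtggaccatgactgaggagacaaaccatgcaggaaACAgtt
Snora24, in Snhg8: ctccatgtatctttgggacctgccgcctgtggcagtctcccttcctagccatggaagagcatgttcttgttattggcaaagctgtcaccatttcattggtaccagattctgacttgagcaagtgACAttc
Snora9, in Snhg15: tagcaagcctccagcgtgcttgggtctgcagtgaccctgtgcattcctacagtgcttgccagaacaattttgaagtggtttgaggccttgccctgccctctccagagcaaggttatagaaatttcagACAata
Snord99, in Snhg12: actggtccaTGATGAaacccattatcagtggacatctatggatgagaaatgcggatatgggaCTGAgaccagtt

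Gas5, a gene found through its rise in growth-arrested cells, held 9 loci, of which 7 had the C and D letters and 2 had neither. Zfas1 held 3 loci, Snhg5 held 2 and Snhg6 held 1, all with the C and D letters, and Snhg1 held 8, of which 6 had them. The 2 loci of Snhg3, Snora73a and Snora73b, and the single loci of Snhg8 and Snhg15 carried ACA. Snhg12 was mixed, with 2 loci that had ACA, 1 with C and D letters and 1 with neither. The hosts are short genes of 853 to 5673 bases with 3 to 25 annotated transcripts, and values per gene cannot be assigned to single transcripts or exons.

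**Figure D1:**
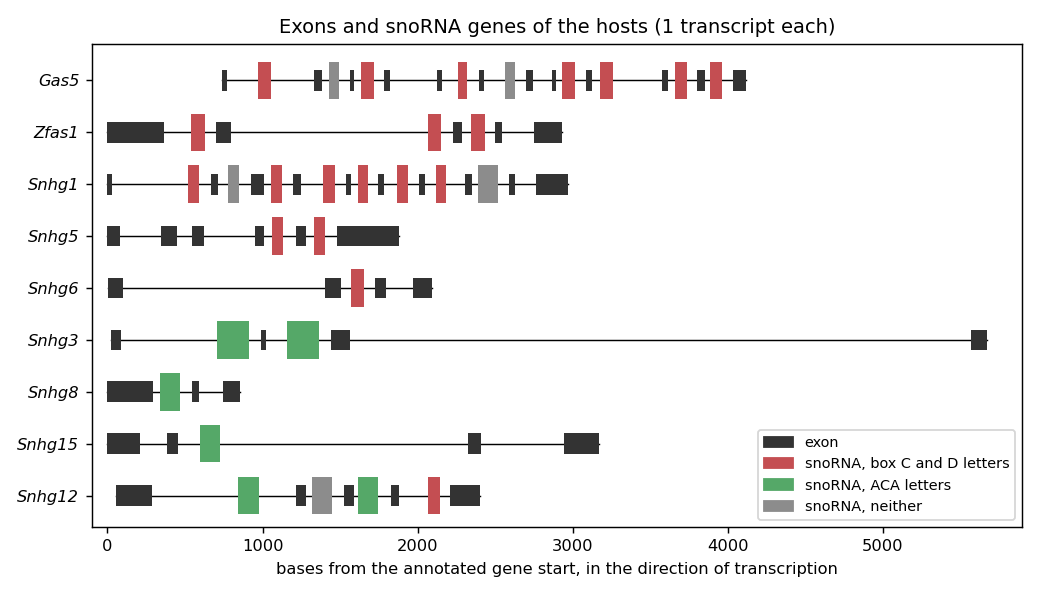
Exons (black) of 1 annotated transcript per host and snoRNA loci (red, box C and D letters; green, ACA letters; grey, neither), drawn to scale in bases from the annotated gene start. Gas5 and Snhg1 alternate short exons with 9 and 8 snoRNA loci, while Snhg6, Snhg8 and Snhg15 hold 1 each.

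The transcript starts are shown because the TOP tract is the feature through which host RNAs are usually tied to translation. RefSeq promoters on GRCm38.p6 held 9 starts of 8 hosts, and each line gives 20 bases before and 20 from the start, with the first transcribed base at position 21. Capitals mark a C followed by at least 4 pyrimidines on the transcribed strand. The windows were Gas5 upstream chr1:161034581-161034620 (plus), Gas5 downstream chr1:161035146-161035185 (plus), Zfas1 chr2:167062914-167062953 (plus), Snhg1 chr19:8723467-8723506 (plus), Snhg5 chr9:88522878-88522917 (minus), Snhg3 chr4:132353667-132353706 (minus), Snhg8 chr3:123508317-123508356 (minus), Snhg15 chr11:6528741-6528780 (minus), Snhg12 chr4:132308658-132308697 (plus). Snhg6 was not matched.
Gas5 upstream start: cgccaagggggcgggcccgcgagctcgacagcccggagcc
Gas5 downstream start: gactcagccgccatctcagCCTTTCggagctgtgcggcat
Zfas1: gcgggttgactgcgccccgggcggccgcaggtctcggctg
Snhg1: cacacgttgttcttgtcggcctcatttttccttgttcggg
Snhg5: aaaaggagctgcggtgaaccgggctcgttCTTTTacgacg
Snhg3: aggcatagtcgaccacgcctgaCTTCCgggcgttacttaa
Snhg8: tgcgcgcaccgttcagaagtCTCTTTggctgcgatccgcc
Snhg15: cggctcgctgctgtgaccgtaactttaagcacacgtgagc
Snhg12: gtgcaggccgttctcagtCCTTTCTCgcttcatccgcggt

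A start whose first 5 bases were C and 4 pyrimidines was annotated for 2 of the 9 windows, the downstream start of Gas5 and Snhg8, against 2.5% of all 32851 starts. Anywhere in the window the tract was found in 5 of 9 (55.6%), against 45.9% of all starts, and 49.9% of all windows held it on the opposite strand. The longest was that of Snhg12, at 8 bases. Zfas1, Snhg1, Snhg15 and the upstream start of Gas5 held none in these windows, which says only that these letters are not there.

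Steps between low values put the depth at 21610000 to 24070000 reads per library with DMSO and at 18770000 to 22560000 with BMH-21. Of 10 macrophage markers, 9 were at 1 FPKM or more in every library, and Mertk was not. The markers of T cells, B cells, neutrophils and fibroblasts that were in the table stayed at or under 0.384 FPKM. The 4 epithelial markers Epcam, Cdh1, Krt8 and Krt18 summed to 10.9 to 13.9 FPKM in the BMH-21 libraries and to 9.66 FPKM in DMSO replicate 3, but to 0.088 FPKM in DMSO replicate 2 and were all listed at 0 in DMSO replicate 1. Krt18 was at 5.47 FPKM in DMSO replicate 3 and at 6.41 to 8.89 FPKM with BMH-21. These markers thus separate DMSO replicates 1 and 2 from the other 4 libraries, and their part in the results was not tested. Against DMSO replicate 3 alone, assumed to vary like the BMH-21 libraries, 7 host genes changed by −0.32 to −0.91 and Snhg15 by 0.61. The all-gene median was then −0.23. Without DMSO replicate 3, all 8 calls made with all libraries remained, with falls of −0.24 to −0.92 and a rise of 0.60. Of all 9748 tested genes, 5511 were then called lower and 1816 higher.

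With BMH-21, 7 host RNAs fell and Snhg15 rose. Zfas1, Snhg5 and Gas5 fell most, to 0.467, 0.484 and 0.512 of their DMSO levels. Snhg3, Snhg8 and Snhg12 went to 0.570, 0.671 and 0.672, and Snhg1 to 0.792. Snhg15 rose 1.71-fold, and Snhg6 was too low to be tested. Of 9748 genes tested with limma on log2(FPKM + 1), 78.3% were called, 58.4% lower and 19.9% higher, at a Benjamini-Hochberg adjusted p under 0.05. On that scale the median over all tested genes was −0.23 and that over the 8 tested host genes −0.58, or −0.34 relative to all genes. Because most called genes were lower, each host gene is also given with the all-gene median subtracted, as its change relative to all genes. In none of the 9 genes did the groups overlap, where 59.5% of tested genes had every BMH-21 library below every DMSO library and 20.3% had every one above.

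**Figure D2:**
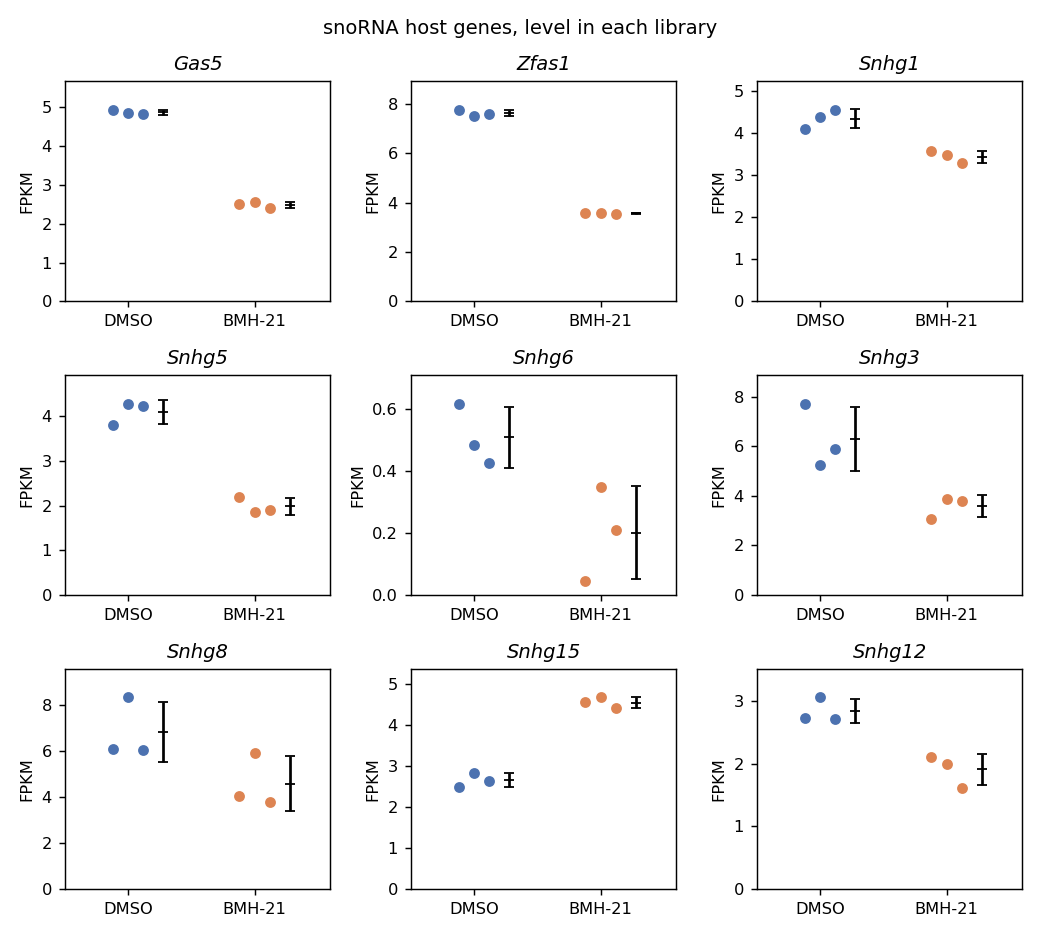
FPKM of each host gene in each library (points, replicates 1 to 3 from left to right), with the group mean and SD beside them (black, n = 3), on axes that start at 0. All 3 BMH-21 points lie below all 3 DMSO points in every panel except that of Snhg15, where they lie above.

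Among the hosts of box C/D snoRNAs, Gas5 (chromosome 1, 161034422 to 161038539) was at 4.94, 4.85 and 4.83 FPKM with DMSO and at 2.52, 2.56 and 2.40 FPKM with BMH-21. The replicates of either group lay within a narrow band, well apart from the other group. The means were 4.87 ± 0.057 and 2.49 ± 0.081 FPKM (SD, n = 3), and the log2 change was −0.75 ± 0.05 (SE, limma adjusted p = 3.21e-07). That is −0.52 relative to all genes, and 12.1% of tested genes had a lower log2 change.

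Zfas1 (chromosome 2, 167062934 to 167065862) starts head to head with Znfx1, a helicase-like gene, and hosts the Snord12 family. Its level was 7.76, 7.52 and 7.60 FPKM with DMSO and 3.56, 3.59 and 3.54 FPKM with BMH-21. The 3 treated libraries were nearly equal, and each was under 4 FPKM. This was the deepest fall on the log2 scale, −0.92 ± 0.04 (SE, limma adjusted p = 4.72e-08), and 6.9% of tested genes had a lower log2 change.

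Snhg5 (chromosome 9, 88521050 to 88522929) carries the near-identical Snord50a and Snord50b. It stood at 3.79, 4.28 and 4.23 FPKM in DMSO and at 2.20, 1.85 and 1.90 FPKM in BMH-21, with a wide gap between the groups. The log2 change was −0.77 ± 0.06 (SE, limma adjusted p = 2.05e-06), or −0.54 relative to all genes. Gas5, Zfas1 and Snhg5 thus shared a change of similar size, and the ratio of Snhg5 to Gas5 was 0.768 to 0.882 with DMSO and 0.725 to 0.872 with BMH-21, ranges that overlap. The ratio of Zfas1 to Gas5 went from 1.55 to 1.57 with DMSO to 1.40 to 1.47 with BMH-21, with no overlap.

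Snhg1 (chromosome 19, 8723475 to 8726443), a host of 8 snoRNAs whose short exons have little conservation, changed least. Its values were 4.11, 4.38 and 4.56 FPKM in DMSO and 3.57, 3.48 and 3.29 FPKM in BMH-21, groups that were close but separate. Its log2 change of −0.27 ± 0.05 (SE, limma adjusted p = 0.0011) was called and equals −0.03 relative to all genes. It was no longer called with median-ratio scaling (−0.03) and upper-quartile scaling (−0.01), and the sign turned with quantile normalization (0.05). The ratio of Snhg1 to Gas5 was 0.833 to 0.943 in DMSO and 1.36 to 1.42 in BMH-21, so these hosts with 8 and 9 snoRNA loci did not keep step. Within a library this ratio does not depend on the scaling by a common factor.

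Snhg6 (chromosome 1, 9941959 to 9944118), the host of Snord87, was under 1 FPKM in every library and did not pass the filter. It was at 0.616, 0.484 and 0.424 FPKM in DMSO and at 0.0465, 0.348 and 0.210 FPKM in BMH-21. With no filter its log2 change was −0.33 ± 0.10 (SE, limma adjusted p = 0.0498). From the shortest to the longest annotated transcript, these levels stand for only 3.8 to 12.1 reads over the DMSO libraries and 0.3 to 6.4 reads over the BMH-21 libraries, so the size of the difference is poorly fixed.

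Of the hosts of H/ACA snoRNAs, Snhg3 (chromosome 4, 132348014 to 132353686) carries Snora73a and Snora73b, RNAs that act in the early cleavage of the ribosomal RNA precursor. It was at 7.72, 5.26 and 5.87 FPKM in DMSO and at 3.07, 3.89 and 3.80 FPKM in BMH-21. DMSO replicate 1 stood above the others, and the groups stayed apart. The log2 change was −0.66 ± 0.11 (SE, limma adjusted p = 0.000407), between −0.52 and −0.76 with 1 library left out. On the same strand, Rcc1, the nucleotide exchange factor of the GTPase Ran, covers nearly the whole of Snhg3, and reads cannot be assigned to one or the other with certainty. Rcc1 was at 16.1 ± 0.59 FPKM with DMSO and 8.23 ± 0.29 FPKM with BMH-21 (SD, n = 3) and fell by 0.89 on the log2 scale, and the ratio of Snhg3 to Rcc1 overlapped between the groups, at 0.333 to 0.490 in DMSO and 0.363 to 0.492 in BMH-21.

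Snhg8 (chromosome 3, 123507552 to 123508404), the host of Snora24, had the largest SE of the tested hosts, with a coefficient of variation of 19% in DMSO, close to the 20% of Snhg3, and 25% in BMH-21. Its values were 6.09, 8.35 and 6.06 FPKM in DMSO and 4.06, 5.92 and 3.78 FPKM in BMH-21. Replicate 2 was the highest in both groups, and BMH-21 replicate 2 came close to the lower DMSO libraries. The log2 change was −0.49 ± 0.14 (SE, limma adjusted p = 0.00942). With the replicate number added to the model as a block it was also −0.49 (limma adjusted p = 3.96e-05). The labels do not say that the numbers mark a shared culture or day. The call was lost with median-ratio scaling (−0.24), upper-quartile scaling (−0.23), quantile normalization (−0.18), with no filter (adjusted p = 0.0889) and against DMSO replicate 3 alone (adjusted p = 0.0918).

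Snhg15 (chromosome 11, 6525591 to 6528760), host of Snora9 and known in human cells as a short-lived, stress-responsive RNA, went the other way. It was at 2.49, 2.84 and 2.63 FPKM in DMSO and at 4.56, 4.68 and 4.42 FPKM in BMH-21. Every treated library lay well above every control. The means were 2.66 ± 0.18 and 4.55 ± 0.13 FPKM (SD, n = 3), a log2 change of 0.60 ± 0.05 (SE, limma adjusted p = 3.64e-06), or 0.84 relative to all genes. Of all tested genes, 95.4% had a lower change. The rise was called under every alternative run, between 0.51 with equal column totals and 0.92 with quantile normalization. The ratio of Snhg15 to Gas5 was 0.504 to 0.587 in DMSO and 1.81 to 1.84 in BMH-21.

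Snhg12 (chromosome 4, 132308623 to 132311024), which holds both snoRNA kinds, was at 2.73, 3.06 and 2.72 FPKM in DMSO and at 2.11, 1.99 and 1.62 FPKM in BMH-21. The groups were separate, with BMH-21 replicate 3 the lowest. It fell by 0.40 ± 0.07 on the log2 scale (SE, limma adjusted p = 0.000552), or −0.17 relative to all genes, and the call was lost with quantile normalization (−0.10).

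**Figure D3:**
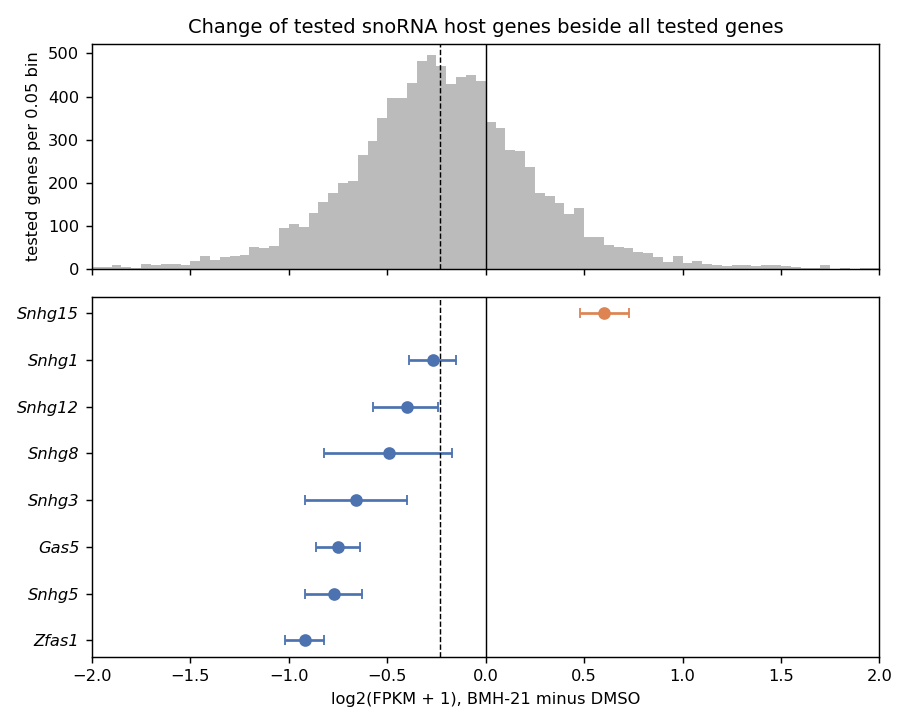
Upper panel, histogram of the log2(FPKM + 1) change of all 9748 tested genes; lower panel, change of each tested host gene with its 95% limma confidence interval (blue, called lower; orange, called higher). The dashed line is the all-gene median of −0.23, and Snhg1 lies on it while Zfas1, Snhg5, Gas5 and Snhg3 lie below it and Snhg15 above 0.

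By kind of snoRNA, all 4 tested box C/D hosts fell (median −0.76), and of 3 H/ACA hosts 2 fell and 1 rose (median −0.49). With so few genes, and 58.4% of all genes lower, no difference between the kinds was tested. The summed level of the 9 genes was 38.9 to 41.0 FPKM in DMSO and 26.3 ± 1.7 FPKM (SD, n = 3) in BMH-21, and the groups did not overlap. Snhg15 made up 6.19% to 6.93% of it in DMSO and 16.5% to 17.7% in BMH-21. In DMSO the order of mean levels ran from Zfas1, Snhg8 and Snhg3 through Gas5, Snhg1 and Snhg5 to Snhg12, Snhg15 and Snhg6. Library values of neighbours overlapped for Zfas1 and Snhg8, Snhg8 and Snhg3, Snhg1 and Snhg5, and Snhg12 and Snhg15. With BMH-21, Snhg15 moved from the eighth to the second place, at 4.55 FPKM beside Snhg8 at 4.59 ± 1.2 FPKM (SD, n = 3), whose libraries overlapped. Zfas1 moved from the first to the fourth.

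Few reads stand behind these values. With the shortest annotated transcript of each tested host, the group means stood for 25 to 91 reads with DMSO and 17 to 43 with BMH-21, and with the longest for 41 to 400 and 43 to 194. Counting error alone would give Gas5 a coefficient of variation of 5.9% to 16% between DMSO libraries, and Zfas1 5.0% to 10%, where 1.2% and 1.6% were seen. The replicates of both genes lay closer together than counting error alone gives. In DMSO this also held for Snhg1 (5.1% seen, 6.1% to 18% from counts) and Snhg5 (6.5%, 9.4% to 16%). It held too for Snhg15 (6.7%, 16% to 20%) and Snhg12 (6.8%, 10% to 19%), but not for Snhg3 and Snhg8. With BMH-21, Snhg15 was at 2.8%, where counts give 13% to 16%. The limma SE and adjusted p of these genes draw on these small spreads and on those of genes at a similar level. Counting error is not added to either. A spread over 3 libraries is itself loosely fixed, and that of Snhg1 lay close to the 6.1% from counts. From counts alone, the SE of the log2 ratio of means was 0.09 to 0.24 for Gas5 (ratio −0.97), 0.08 to 0.16 for Zfas1 (−1.10), 0.17 to 0.21 for Snhg15 (0.78) and 0.08 to 0.23 for Snhg1 (−0.34). These log2 ratios are of FPKM with no added constant, and so are larger than the log2(FPKM + 1) changes.

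**Figure D4:**
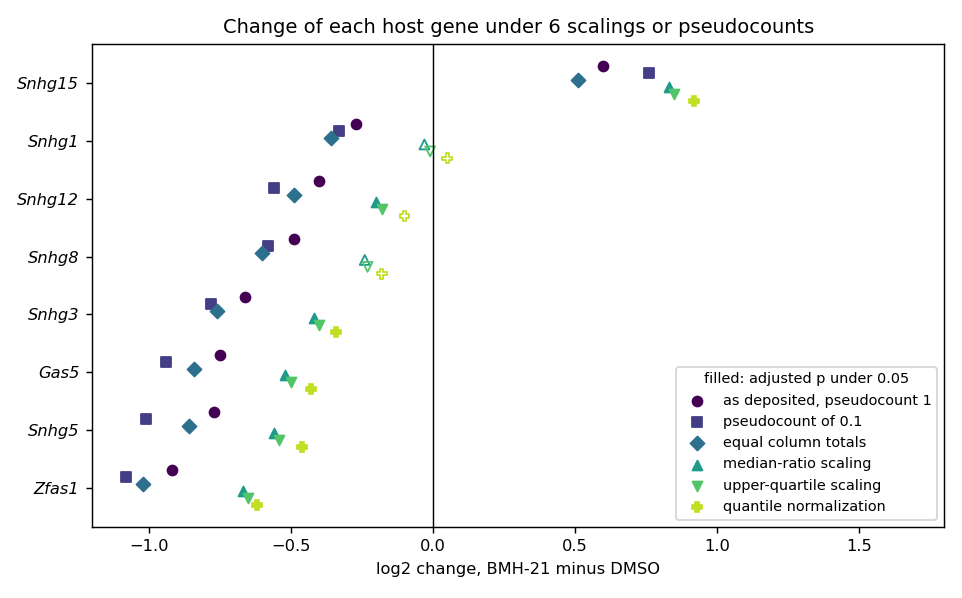
Log2 change of each tested host gene under 6 choices of scaling or pseudocount (symbols), filled where the limma adjusted p was under 0.05 and open where not. Zfas1, Snhg5, Gas5 and Snhg3 stay filled and negative, Snhg15 stays filled and positive, and Snhg1 lies between −0.36 and 0.05.

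The choice of scaling bears on every fall. The all-gene median moved by 0.24 with median-ratio scaling, by 0.26 with upper-quartile scaling, by 0.24 with quantile normalization and by −0.10 with equal column totals. Genes called lower were 35.3%, 33.8%, 35.9% and 67.9% of those tested under these choices, and genes called higher 38.2%, 39.7%, 36.1% and 14.2%. Of the host genes 5, 5, 4 and 7 were called lower, and Snhg15 alone was called higher each time. Gas5, Zfas1, Snhg5 and Snhg3 were the 4 called lower under all of them. Relative to the all-gene median, the median of the 8 hosts was −0.34, −0.34, −0.26 and −0.35.

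Neighbouring genes were read for the same loci, since the kit is not stated to mark strand. Zbtb37, a zinc finger gene that overlaps the start of Gas5 on the other strand, was at 0.383 ± 0.079 and 0.393 ± 0.029 FPKM (SD, n = 3), under the filter. Znfx1 was called lower at −0.16 (limma adjusted p = 0.0137) with 82 bases shared with Zfas1, and its sign turned with median-ratio scaling (0.07), upper-quartile scaling (0.09) and quantile normalization (0.16). Slc3a2, the heavy chain of amino acid transporters, starts 105 bases from Snhg1 and was at 40.9 ± 1.4 and 29.2 ± 1.3 FPKM (SD, n = 3) and fell by 0.47 on the log2 scale. Trnau1ap, a selenoprotein synthesis factor gene 738 bases from Snhg12, was called lower at −0.17, with the sign turned under median-ratio scaling (0.09), upper-quartile scaling (0.11) and quantile normalization (0.11). Mcmdc2 beside Snhg6 and Prss12 beside Snhg8 did not exceed 0.166 FPKM in any library, and Gm17300, opposite Snhg3, not 0.289 FPKM.

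Among 13 other noncoding hosts listed for comparison, 9 were in the table and 4 were tested. All 4 were called lower (median −0.57, or −0.33 relative to all genes), where 58.4% of all tested genes were. Snhg20 fell from 1.88 ± 0.049 to 0.485 ± 0.074 FPKM (SD, n = 3), having passed the filter only through its DMSO libraries. Epb41l4aos fell from 6.56 ± 1.5 to 3.34 ± 1.0 FPKM (SD, n = 3). Snhg16 was at 1.6 and 1.07 FPKM and Snhg17 at 2.19 and 1.70 FPKM, calls that were lost with median-ratio, upper-quartile and quantile scaling, the last of which turned the sign of Snhg17 (0.04). The 5 untested ones were Snhg10, at 1.16 and 0.808 FPKM with DMSO and BMH-21, Snhg4, at 0.629 and 0.253 FPKM, Snhg18, at 0.227 and 0.153 FPKM, Dancr, at 0.0977 and 0.0220 FPKM, and Snhg14, which was near 0.

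Of 22 ribosomal protein genes that host snoRNAs, 11 rose, 6 fell and 5 did not pass (median 0.19, or 0.42 relative to all genes). With median-ratio and with upper-quartile scaling 16 rose and 4 fell, at medians of 0.48 and 0.5. With quantile normalization 9 rose and 8 fell at a median of 0.00, and with equal column totals 9 rose and 10 fell. Over all tested genes, 19.9% rose as deposited, and 38.2%, 39.7%, 36.1% and 14.2% under these choices in turn. Rpl23a rose from 641 ± 20 to 946 ± 12 FPKM (SD, n = 3) and Rpl27a from 223 to 355 FPKM. Rpl3 fell from 218 to 101 FPKM. Rpl7a was called lower, from 873 to 732 FPKM, with the sign turned under median-ratio (0.04) and upper-quartile scaling (0.06), and Rpl13a, with 849 ± 92 FPKM in DMSO and 959 ± 140 FPKM in BMH-21, missed the threshold. Near-identical pseudogenes leave single ribosomal protein values uncertain.

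Of 27 other coding hosts, 21 fell, 3 rose and 3 did not pass (median −0.57, or −0.34 relative to all genes). Over all tested genes, 58.4% fell and 19.9% rose. Eef2, the elongation factor that moves the ribosome along, fell from 728 ± 4.9 to 420 ± 19 FPKM (SD, n = 3). The initiation helicase gene Eif4a1 fell from 327 to 201 FPKM, the ATP synthase gene Atp5b from 348 to 172 FPKM and the mitochondrial chaperone gene Hspa9 from 67.7 to 31.0 FPKM. Tpt1, the translationally controlled tumour protein, rose from 289 to 520 FPKM, and Rnf149, a ubiquitin ligase gene, from 59.7 ± 7.7 to 131 ± 2.7 FPKM. The noncoding hosts listed first thus had a median near that of the other coding hosts and below that of the ribosomal protein hosts, a difference between lists that was not tested.

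**Figure D5:**
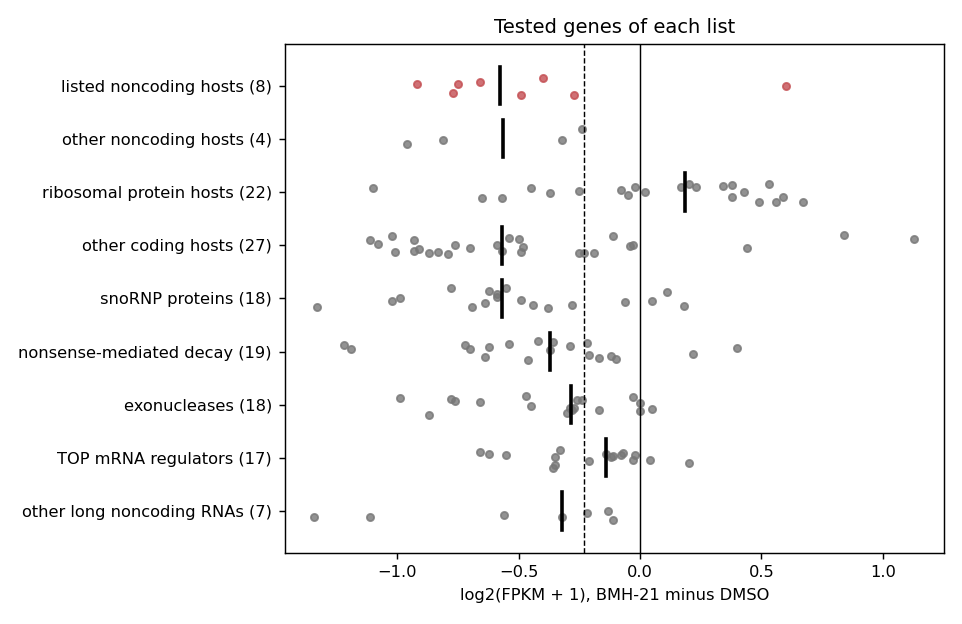
Log2(FPKM + 1) change of every tested gene in 9 lists (points; number of genes in parentheses), with each list's median (black bar) and the all-gene median (dashed line). The ribosomal protein hosts have a median of 0.19, and the 3 other host lists have medians of −0.57 and −0.58.

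The RNAs of proteins that package snoRNAs were taken as a further list. Of 18 tested genes of snoRNP proteins and assembly factors, 14 fell, 1 rose and 3 did not pass (median −0.57, or −0.33 relative to all genes). With median-ratio scaling 11 fell and 4 rose. Over all tested genes, 58.4% fell and 19.9% rose, and 35.3% fell and 38.2% rose with median-ratio scaling. Fbl, the box C/D methyltransferase fibrillarin, fell from 100 ± 6.2 to 68.0 ± 2.6 FPKM (SD, n = 3), and Ruvbl2, an ATPase of the assembly machinery, from 49.5 to 19.1 FPKM. Gar1, an H/ACA core protein, fell from 92.3 to 67.4 FPKM, a call lost with median-ratio and upper-quartile scaling. The H/ACA proteins Nhp2, at 381 ± 14 and 413 ± 22 FPKM, and Nop10, at 67.3 ± 4.3 and 69.9 ± 7.8 FPKM, did not pass. Snu13, the box C/D protein that binds first, rose from 61.6 to 70.1 FPKM, a call lost with equal column totals.

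Genes of nonsense-mediated decay and the exon junction complex, which mark and remove RNAs with early stop codons, mostly fell. Of 19 tested, 17 fell and 2 rose (median −0.37, or −0.14 relative to all genes), where 58.4% of all tested genes fell. With median-ratio scaling 9 fell and 4 rose, where 35.3% of all tested genes fell and 38.2% rose. Smg6, among those that fell, passed the filter only through its DMSO libraries. Eif4a3, the helicase of the exon junction, fell from 78.1 ± 1.8 to 33.0 ± 2.3 FPKM (SD, n = 3), and Dhx34, a decay helicase gene, rose from 5.48 to 7.54 FPKM. Magoh was at 191 and 143 FPKM, Rbm8a at 127 and 97.8 FPKM, Etf1 at 79.6 and 68.1 FPKM and Pnrc2 at 78.6 and 72.4 FPKM. These 4 were called lower, but with median-ratio and upper-quartile scaling the calls of Magoh and Rbm8a were lost and the signs of Etf1 (0.07 and 0.09) and Pnrc2 (0.18 and 0.20) turned.

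Of 18 genes of exonucleases, decapping and the exosome, 14 fell, none rose and 4 did not pass (median −0.28, or −0.05 relative to all genes). With median-ratio scaling 7 fell and 4 rose. Over all tested genes, 58.4% fell and 19.9% rose, and 35.3% fell and 38.2% rose with median-ratio scaling. Exosc8 fell from 14.7 to 6.90 FPKM and Exosc5 from 32.7 to 19.0 FPKM. Exosc3 was at 80.6 and 66.7 FPKM and Exosc2 at 19.7 and 15.8 FPKM, calls lost with median-ratio and upper-quartile scaling, where the sign of Exosc3 turned (0.02 and 0.05) and Exosc2 was at −0.02 and 0.00, and Exosc4 was at 42.8 FPKM in both groups. Of 17 regulators of TOP mRNA translation, 9 fell, 1 rose and 7 did not pass (median −0.14, or 0.09 relative to all genes), and with median-ratio scaling 3 fell and 6 rose. Eif4e, the cap-binding protein, rose from 50.2 to 57.7 FPKM, a call lost with equal column totals, and Tial1, a TOP-binding repressor, fell from 12.6 to 7.61 FPKM. Eif4ebp1, the mTOR-controlled inhibitor of Eif4e, was at 145 and 143 FPKM, and Cnbp at 271 and 258 FPKM, and neither passed. Eif4ebp2 was called lower (−0.35), a call lost with median-ratio and upper-quartile scaling.

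Of 20 other long noncoding RNAs listed, 7 were tested, and 5 fell, none rose and 2 did not pass (median −0.32, or −0.08 relative to all genes). Firre, 1 of the 5, passed the filter only through its DMSO libraries, and with median-ratio scaling 3 fell. Over all tested genes, 58.4% fell, and 35.3% with median-ratio scaling. The nuclear RNAs Neat1 and Malat1 fell from 6.43 ± 0.19 to 1.93 ± 0.14 and from 9.95 ± 0.56 to 4.06 ± 0.26 FPKM (SD, n = 3), deeper than Zfas1 on the log2 scale, at −1.34 and −1.11. Tug1 was at 10.9 and 8.56 FPKM and 2900097C17Rik at 23.4 and 19.9 FPKM. These 2 calls were lost with median-ratio, upper-quartile and quantile scaling, and 2900097C17Rik turned sign (0.06, 0.08 and 0.01).

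The genes nearest to the mean profile of the 8 tested hosts, by root mean square distance of centred log2(FPKM + 1) over the 6 libraries, were Ptges3 (0.013), Fbxl5 (0.014) and Ankrd52 (0.019). Ptges3 went from 189 ± 5.5 to 136 ± 5.0 FPKM (SD, n = 3), Fbxl5 from 6.92 to 4.81 FPKM and Ankrd52 from 7.64 to 5.45 FPKM. As the mean of 7 falls and 1 rise, that profile is one no single host need share, and the distance says nothing of shared function.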

How the data were processed

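RNA from polysome fractions of 6 libraries was sequenced, 3 BMH-21 and 3 DMSO, grouped and numbered by title. The authors deposited 1 table of normalised values, whose unit was read as FPKM from the values and is not named in the sources used here. Trimmomatic 0.38, HISAT2, SAMtools and mm10 are named per the submitters' processing notes, and no source used here gives the counting tool or its annotation. Some values lie far below that of 1 read, so they are estimates and not plain read counts. FPKM are shares of a library, so total RNA per cell is not measured.

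Depth was estimated from genes with 1 transcript in GENCODE M21. At the best depth, 75.4% to 77.5% of values of at most 20 reads came within 0.01 of a whole number, too few to recover counts.

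Values were transformed as log2(FPKM + 1), and limma 3.58.1 (R 4.3.3), fitted with an intensity trend, was run on the 9748 genes (50.7%) that reached 1 FPKM in 3 or more libraries, with Benjamini-Hochberg adjustment at 0.05. The script was tested on simulated data. Separate cultures are not stated, so p-values measure the spread between these libraries, which may be technical. An exact permutation test of 3 against 3 cannot go below p = 0.1.

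The members and the 8 gene lists were chosen with earlier results of these data known. Named in each list were the 4 tested genes with the highest mean FPKM and the largest called rise and fall, with all other noncoding hosts, all genes within 2000 bases of a host and the 3 nearest profiles; 1 gene that this rule names is not reported here. Alternatives covered pseudocount, filters, 4 scalings, the intensity trend, a replicate block and each library left out. Comparison with DMSO replicate 3 alone was added after seeing the data.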

Additional observations from a re-analysis of the deposited data

How the results depend on the processing

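Of 128 fold changes of the 8 tested host genes over 16 alternatives, 119 kept their direction and their side of the threshold, 8 kept their direction but were no longer called, and 1 changed sign (Snhg1 with quantile normalization, 0.05). Gas5, Zfas1, Snhg3, Snhg5 and Snhg15 kept their calls in all 16. With 4 host genes called lower under quantile normalization in place of 7, the cause was not tested. Genes called lower were 5690, but 3442, 3294 and 3498 under median-ratio, upper-quartile and quantile scaling, and genes called higher were 1938, but 3724, 3873 and 3517, because these scalings move the all-gene median. With 1 library left out, host genes called lower stayed at 7 and genes called lower at 5450 to 5597. With the replicate block, 5608 genes were lower and 1894 higher, and 7 and 1 host genes. Deviations from the group means of libraries with the same number had correlations of −0.112, −0.094 and −0.064. Libraries with different numbers had 0.005 to 0.097. With group means of only 3 libraries, these values cannot decide whether the numbers mark a shared culture or day. Depth limits Snhg6 most, at 0.3 to 12.1 implied reads per library.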

Other observations

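The GENCODE M21 annotation gives a wider set of hosts than the listed genes, namely every gene of the table with a snoRNA inside an intron on its own strand. It was built after the values had been seen and is given as a description. Of 234 protein-coding hosts, 189 were tested, and 49 rose and 113 fell, with a median of −0.26, or −0.03 relative to all genes, where 58.4% of all tested genes fell. With median-ratio scaling 71 rose and 72 fell, and with upper-quartile scaling 72 rose and 71 fell. Over all tested genes, 38.2% rose and 35.3% fell with the first, and 39.7% rose and 33.8% fell with the second. Of 32 genes that GENCODE does not class as protein-coding, 14 were tested, and 12 fell and 1 rose, with a median of −0.70, or −0.47 relative to all genes. These 14 include the 8 tested host genes already described. Without the 9 genes listed first, 23 genes remained and 6 were tested. Of these, 5 fell and none rose, with a median of −0.78, or −0.55 relative to all genes. Epb41l4aos, Snhg17, Snhg20 and Cct6a, which fell, were already counted in the comparison lists above. Of those in no list, 2410006H16Rik fell and 1110038B12Rik was not called. Snhg20, 1 of the 6, passed the filter only through its DMSO libraries. The median of the 14 stayed between −0.38 and −0.47 relative to all genes under the 4 other scalings. Snhg15 was the one that rose as deposited.

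The most abundant of these noncoding hosts was 2410006H16Rik, which holds 3 snoRNA loci and is named here because of its values. It was at 53.7, 48.4 and 56.0 FPKM in DMSO and at 18.1, 20.1 and 18.1 FPKM in BMH-21. Its log2 change of −1.44 ± 0.06 (SE, limma adjusted p = 2.09e-08) was below those of the 8 tested host genes and of the 4 other noncoding hosts tested, and 1.4% of tested genes had a lower one. The host 1110038B12Rik, with 2 loci, was at 10.5 ± 0.83 and 9.91 ± 0.82 FPKM (SD, n = 3), and its groups overlapped. GENCODE also files Cct6a, a chaperonin subunit gene, in this class, and it fell from 41.2 to 24.0 FPKM.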
